A study of Homo sapiens with 6 samples.

Results

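The AP-1 transcription factor genes examined here were the 3 JUN genes, the 4 FOS genes and the 3 small MAF genes, 10 of 19993 protein-coding genes. They were chosen by name (JUN, JUNB, JUND, FOS, FOSB, FOSL1, FOSL2, MAFF, MAFG and MAFK), and peaks were assigned to them by the position of each gene in GRCh38. RNA fragments carrying N1-methylguanosine (m1G) had been precipitated with an anti-m1G antibody and sequenced beside unprecipitated input. The source was polyA+ RNA, fragmented beforehand, of the human pancreatic ductal adenocarcinoma line PANC-1. Cells depleted of TRMT5 by siRNA for 4 days gave 2 precipitates and 1 input, and control cells, labelled WT, gave 2 precipitates and 1 input. All 6 libraries came from this 1 line and 1 batch. The deposited values are a MeTDiff list of 18431 peaks and a MACS2 list of 6264 peak summits, and neither list separates TRMT5-depleted from control cells. No difference between the conditions, no replicate error and no depth can therefore be given, and each fold, score and false discovery rate (FDR) below is the authors' own value for a peak. In the MeTDiff list, peaks were found in 5 of 6 genes taken as markers of a ductal carcinoma line (KRT8, KRT18, KRT19, EPCAM and VIM, but not KRT7). In the MACS2 list they were found in 4 of 6 (KRT8, KRT18, KRT19 and VIM). Markers of acinar cells (0 of 3), endocrine cells (0 of 3), leukocytes (0 of 2) and endothelial cells (0 of 2) had none in either list. Of all protein-coding genes, 37.3% had a MeTDiff peak and 18.0% a summit, so a count of 0 among so few genes says little.

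AP-1 is a family of dimers of basic leucine zipper (bZIP) proteins that bind short palindromic DNA elements. JUN proteins pair with each other or with FOS proteins, whereas FOS proteins need a JUN partner. JUN N-terminal kinases and ERK raise the activity or the transcription of these genes, several of which are immediate early genes with short-lived mRNAs. Small MAF proteins lack a transactivation domain and pair with NFE2L2 or BACH proteins on antioxidant response elements. In pancreatic ductal carcinoma, where RAS signalling is commonly active, AP-1 is known for its part in proliferation and invasion.

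Of the 10 genes, 7 had at least 1 MeTDiff peak on their own strand, against 37.3% of all protein-coding genes, and 4 had a MACS2 summit, against 18.0%. Genes are not replicates. Expression was not measured in these lists, and whether a gene has a peak depends on the amount of its mRNA as well as on its enrichment. All 3 JUN genes and all 3 small MAF genes had a MeTDiff peak, and 1 of the 4 FOS genes did. The 4 genes with a summit, JUN, JUND, MAFG and MAFK, all had a MeTDiff peak too, and both kinds of peak occurred together in 16.9% of protein-coding genes. FOS, FOSB and FOSL2 had neither, as was the case for 61.5% of protein-coding genes. Among protein-coding genes with spans in the range of the members, from 1830 to 24460 bp, 37.5% had a MeTDiff peak and 19.9% a summit. This range is wide, and genes as short as the JUN genes were not set apart in it. Among all genes no longer than 24460 bp the share with a MeTDiff peak was 34.3%.

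The 7 genes held 21 MeTDiff peaks on their own strand, with folds of precipitate over input from 1.67 to 10.5 and a median of 5.22, beside a median of 4.24 in the whole list. Of these 21 peaks, 15 lay above the list median, against 50.0% of all peaks. None came near the largest fold of the list, 73.9. An FDR of 0.01 or less was held by 16 of the 21, against 89.1% of the list. By subfamily these were 6 of the 6 JUN peaks, the 1 FOS peak and 9 of the 14 small MAF peaks. The 6 peaks of the JUN genes had a median fold of 8.0 and the 14 peaks of the small MAF genes one of 4.50. Of the 6 JUN peaks, 4 were entries of JUND, among them overlapping entries of 1 place. By the largest fold per gene the medians lay closer together, at 9.0 in the JUN genes and 8.50 in the small MAF genes. The largest fold per gene had a median of 8.50 over the 7 genes, against 6.04 over all protein-coding genes with a peak. The largest fold of a gene also depends on how many peaks it has. That number ran from 1 to 7 in these genes, beside a median of 2 over all protein-coding genes with a peak.

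**Figure D1:**
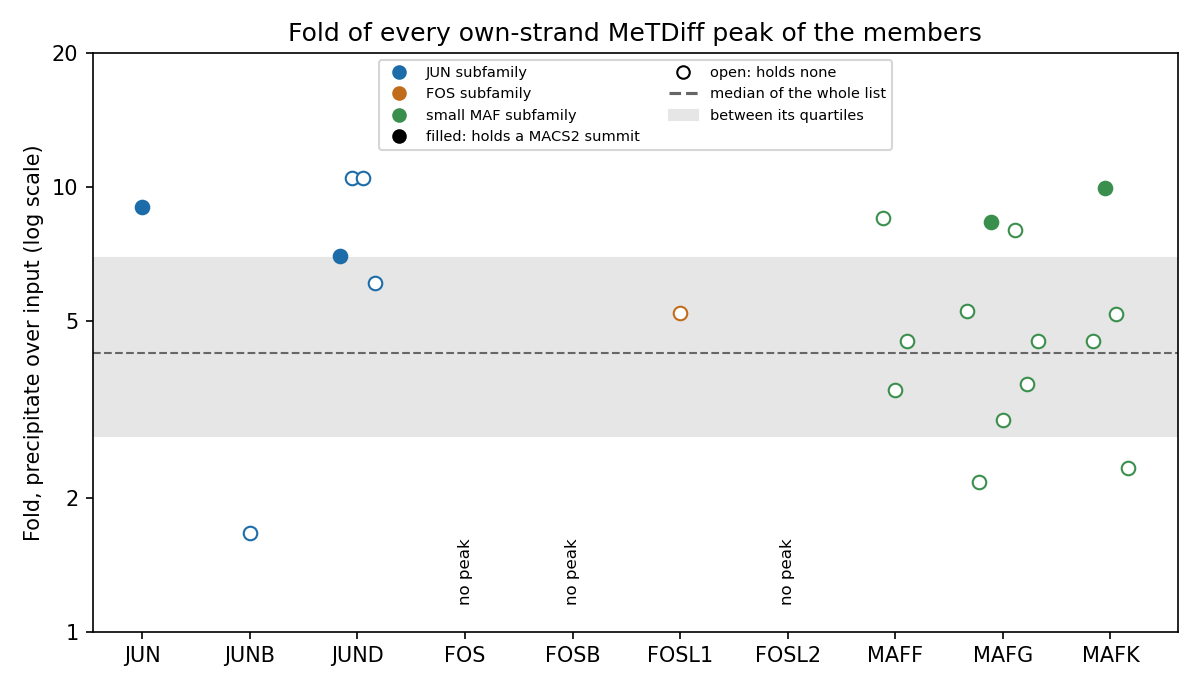
Fold of each MeTDiff peak on the strand of its gene (vertical axis, precipitate over input, log scale) for the 10 genes (horizontal axis). Filled points hold a MACS2 summit, the dashed line is the median of the whole list (4.24) and the grey band runs between its quartiles, from 2.75 to 6.91. JUND, MAFK and JUN have the largest folds (10.5, 9.93 and 9.0), JUNB has the smallest (1.67), and FOS, FOSB and FOSL2 have no peak.

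JUN, the founding member of the family and the main substrate of JUN N-terminal kinases, had 1 MeTDiff peak of 9.0-fold (chromosome 1, 58783356 to 58783652, minus strand, FDR 0.000372). This fold was above 84.2% of the whole list. The midpoint of the peak was 543 bp from the 5′ end of the gene, whose span is 3257 bp (58780791 to 58784047, ENSG00000177606). JUN has no introns, so for this gene distance along the span is also distance along the mRNA. The only MACS2 summit of JUN, at 58783647 with a score of 15.5, lay inside that peak, 400 bp from the 5′ end. Both callers thus placed the enrichment of JUN in the first part of the gene, and the remaining 3′ part held no peak in either list.

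JUND, a JUN gene with comparatively steady expression and also without introns, had the largest fold of the group and the densest peaks along the genomic span. Its 4 MeTDiff peaks covered 599 bp, which is 31.1% of a span of 1929 bp (chromosome 19, 18279694 to 18281622, minus strand, ENSG00000130522), and the next highest share was 9.12% in JUN. The spans of the small MAF genes include introns, which lowers this share. In bases covered, MAFK (1046 bp) and MAFG (955 bp) exceeded JUND, and the other members did not. From the 5′ end, the first peak had a fold of 7.0 (18281325 to 18281573, FDR 0.000501), with its midpoint 173 bp from that end. In the middle of the gene lay a pair of nearly identical entries, both of 10.5-fold (18280779 to 18280879 with FDR 5.2e-05, and 18280782 to 18280880 with FDR 0.000447). They overlap and describe 1 place, so JUND has 3 separate enriched places. Such overlaps between entries of 1 gene ID concerned 142 of the 18431 peaks. The last peak had a fold of 6.07 (18280238 to 18280485, FDR 0.000447). The stronger of the 2 summits of JUND, at 18281454 with a score of 16.7, was inside the peak nearest the 5′ end. The other, at 18280486 with a score of 5.80, was 1 bp outside the 6.07-fold peak, and the 10.5-fold place held no summit.

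JUNB, which can oppose JUN at some promoters and is intronless as well, had the weakest peak of the group. Its only MeTDiff peak had a fold of 1.67 (chromosome 19, 12792079 to 12792178, plus strand, ENSG00000171223, FDR 0.00355), which was above 4.23% of the list. The midpoint was 642 bp from the 5′ end of a span of 1830 bp (12791486 to 12793315). No summit fell in JUNB. The span overlaps that of HOOK2, and no other MeTDiff peak lay there on either strand. The 3 JUN genes, all short and without introns, therefore ran from 1.67-fold in JUNB to 10.5-fold in JUND.

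JUN is known to regulate its own promoter through an AP-1-like element, and the promoter windows of RefSeq (GRCh38.p14) show which members carry such letters. The 250 bases before the start were available for 8 of the 10 genes, FOSL1 and MAFK aside, and were searched on both strands. The letters TGACATCA, the form of the JUN promoter, occurred in 1 of the 8, JUN itself, and in 1.98% of 15813 protein-coding promoters. Since this form is that of JUN, its match in JUN was fixed in advance. The cyclic AMP response element TGACGTCA, which JUN-ATF dimers also bind, occurred in JUND and MAFF and in 2.32% of promoters. The antioxidant response core TGACNNNGC occurred in JUND and MAFF too, at other places than TGACGTCA, and in 11.5% of promoters. The AP-1 element proper, TGACTCA or TGAGTCA, occurred in 0 of the 8 (3.17% of promoters), and the CArG box of the serum response factor in 0 of the 8 (1.14%). Elements farther than 250 bases before a start, in FOS or any other gene, lay outside the search. These counts therefore do not show that a promoter lacks an element. These matches are a description of the windows, and the m1G lists carry no information on promoter use. The 3 stretches below, each with the element in capitals, are shown because the elements are those the proteins of this family bind, and they lie 67, 200 and 54 bases before the start of JUN, JUND and MAFF (first base of the element).
JUN, chr1:58784096-58784125, minus strand: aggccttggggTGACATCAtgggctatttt
JUND, chr19:18281804-18281833, minus strand: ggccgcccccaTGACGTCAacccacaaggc
MAFF, chr22:38201929-38201958, plus strand: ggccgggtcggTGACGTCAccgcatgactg

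Among the FOS genes, which supply the partner that makes the most stable AP-1 dimers, FOSL1 was the only one with a peak. FOSL1 encodes FRA-1, an AP-1 subunit linked to RAS signalling and invasion in carcinomas. Its MeTDiff peak had a fold of 5.22 and an FDR of 0.000107, above 61.7% of the list (chromosome 11, 65893290 to 65896843, minus strand, ENSG00000175592). The peak was spliced, with 150 bp of transcript in 3 blocks, and its midpoint was 76.1% of the way along a span of 8497 bp (65892049 to 65900545). It contained no summit, and no summit lay in the FOSL1 span. FOS (chromosome 14, 75278828 to 75282230), the classic immediate early gene induced by serum, had 0 peaks in both lists. So did FOSB (chromosome 19, 45467996 to 45475179), known for its truncated splice form in the brain. FOSL2 (chromosome 2, 28392858 to 28417317), which encodes FRA-2, had 0 peaks as well although its span of 24460 bp is the longest of the group. Both lists hold only what passed a threshold, so an absent peak does not tell a transcript without m1G from one too scarce to be called.

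Of the 7 members with a MeTDiff peak 4 had several, against 56.3% of the protein-coding genes with a peak. All 3 small MAF genes were among them, with 14 peaks in total, and all 14 lay past the middle of their gene. Their midpoints ran from 62.2% to 98.5% of the way along the span, with a median of 86.3%. In the JUN genes the midpoints ran from 8.97% to 65.4%, with 1 of 6 past the middle. Over all members 16 of 21 peaks lay past the middle, against 54.4% of the peaks of protein-coding genes in the same span range and 59.5% in all protein-coding genes. The difference between the subfamilies was not tested. Position was measured along the genomic span and includes introns, which the JUN genes lack. Exon positions were not available, so for the small MAF genes these values do not give the place along the mRNA. Within 500 bp of the 5′ end lay 1 of the 21 peaks, that of JUND, against 17.2% of the peaks of all protein-coding genes and 18.3% in the same span range. Within 500 bp of the 3′ end lay 3, of MAFG and MAFK, against 6.55% and 9.29%.

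**Figure D2:**
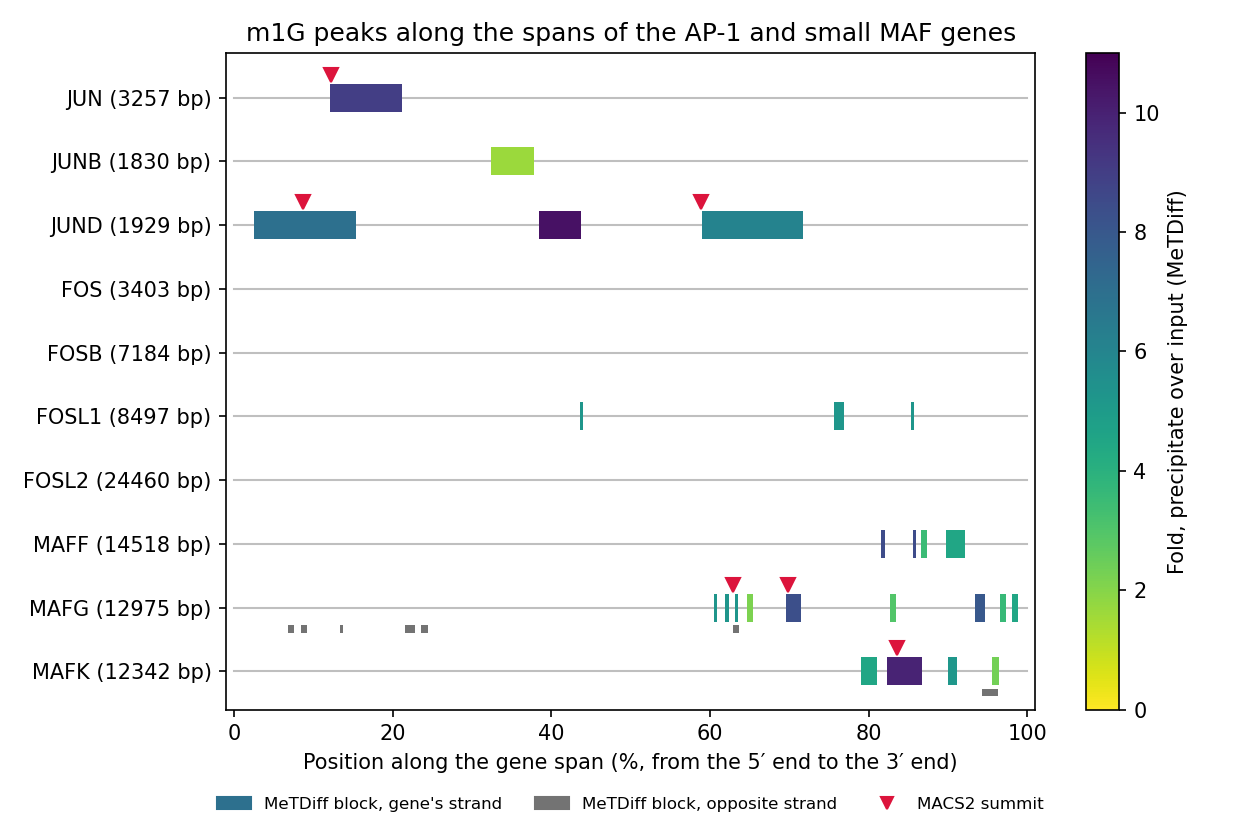
MeTDiff peaks on the strand of the gene (bars coloured by fold), MeTDiff peaks on the opposite strand (grey bars below the line) and MACS2 summits (triangles) along the span of each gene, as a percentage from the 5′ end to the 3′ end. The midpoints of the 14 peaks of the small MAF genes lie between 62.2% and 98.5% of the span, those of the JUN genes between 8.97% and 65.4%, and 6 further peaks on the opposite strand lie in the spans of MAFG and MAFK.

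MAFG, the small MAF whose protein pairs with NFE2L2 and BACH1, had the most peaks of the group. It held 7 on its own strand, and 95.1% of the protein-coding genes with a peak had fewer (chromosome 17, span 81918270 to 81931244, minus strand, ENSG00000197063). From the 5′ end the folds were 5.25 in a spliced peak of 3 blocks, then 2.17, 8.36, 3.0, 8.0, 3.60 and 4.50 nearest the 3′ end. No trend along the gene is visible in them, and the 2 peaks of at least 8-fold were separated by a peak of 3.0-fold. FDR values ran from 0.00107 for the 8.36-fold peak (81921963 to 81922212) to 0.00776 for the 3.0-fold peak. The last 3 peaks lay within 773 bp of the 3′ end by their midpoints. One of the 2 MACS2 summits of MAFG, at 81922183 with a score of 10.8, was inside the 8.36-fold peak.

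The other summit in the span, at 81923086 with a score of 11.1, could not be given to MAFG by strand. It was 29 bp from the nearest block of the 5.25-fold MAFG peak, in a gap between its blocks. It was inside a peak of 3.75-fold on the opposite strand (81922993 to 81923086, ENSG00000264769), where the annotation has the antisense noncoding gene MAFG-AS1. Summits carry no strand, so MAFG and MAFG-AS1 cannot be told apart as its source. A further 4 opposite-strand peaks in the MAFG span belonged to ENSG00000265688, at the place of the noncoding gene MILIP, with folds of 4.75, 4.00, 2.50 and 3.20 from 81928078 to 81930354. These lay in the 5′ part of the MAFG span, where MAFG had no peak of its own. The plus strand of the span thus held 5 peaks against the 7 of MAFG.

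MAFK, whose product also pairs with NFE2L2 and BACH proteins, had the highest MACS2 score and the longest peak of all the members. Its 4 MeTDiff peaks had folds of 4.50, 9.93, 5.17 and 2.33 from the 5′ side to the 3′ end (chromosome 7, span 1530702 to 1543043, plus strand, ENSG00000198517). Their FDR values, in the same order, were 0.0155, 0.00324, 0.0112 and 0.0191. The 9.93-fold peak covered 547 bp (1540858 to 1541404, FDR 0.00324) and contained the only summit of the gene, at 1541023 with a score of 21.5. This score was above 65.2% of the MACS2 list, the highest such share among the members. The weakest peak, of 2.33-fold, overlapped a peak of 3.07-fold on the opposite strand (1542334 to 1542583, ENSG00000164855), where the span of TMEM184A overlaps that of MAFK. Without strand in the counting, reads there could belong to either gene, and how the authors treated strand is not given in the sources used here.

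MAFF, the small MAF that is induced by cytokines and stress, had 3 MeTDiff peaks and no summit. The folds were 8.50 in a spliced peak of 2 blocks (chromosome 22, 38213842 to 38214472, plus strand, ENSG00000185022), then 3.50 and 4.50 towards the 3′ end. All 3 carried the same deposited p-value of 0.0039, while their FDR values were 0.0468, 0.0468 and 0.00692. The FDR of 0.0468 was the highest among the members and close to the limit of the list, 0.0501. Shared p-values occurred in 3 of the 4 members with several peaks (JUND, MAFF and MAFG). MAFF was the only member with several MeTDiff peaks and no summit.

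The 6 summits in the members had a median score of 13.3, beside 16.4 in the whole MACS2 list, and 2 of the 6, in JUND and MAFK, were above it, against 50.0% of the list. Of the 6, 4 lay inside a MeTDiff peak of the same gene, against 36.9% of the summits in protein-coding genes. In MAFG and MAFK the peak that contained a summit was also the strongest of its gene, and in JUN it was the only one. In JUND it was not, since the 10.5-fold place held none. The 3 spliced peaks were among the 15 outside the intronless JUN genes, and 32.7% of the peaks of protein-coding genes in the same span range were spliced. The folds often lay on steps of 0.25, as in 12 of the 21 peaks (within 0.005), against 38.6% of the list. How many input reads such a ratio rests on is unknown.

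Genes around AP-1 were described with 5 lists. Of 26 other bZIP genes, which include the partners of JUN and of the small MAF proteins, 9 had a MeTDiff peak and 6 a summit, shares of 34.6% and 23.1%. The first lay below the 37.3% of all protein-coding genes and the second above the 18.0%. MAFA, a large MAF factor known from beta cells, had the largest fold of these, 15, in 1 of 5 peaks, and held 2 summits. The 3 endocrine markers (INS, GCG and SST), in contrast, had no peak in either list. After MAFA came NFE2L3 with 8.25-fold and no summit, and ATF5, a factor of the stress response, with 7.25-fold and 1 summit. The median of the largest folds per gene was 8.50 in the members and 3.99 in this list. It was 8.0 in the inhibitors and turnover factors, 8.64 in the target genes and 8.50 in the other immediate early genes described further on, so the value of the members lay within the range of these lists.

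Upstream of AP-1, 19 of 25 genes of the MAP kinase pathway had a MeTDiff peak (76.0%) and 7 a summit (28.0%). RPS6KA1, a kinase activated by ERK, reached 30-fold, SRF, the serum response factor that drives FOS transcription, 26.5-fold with a summit of score 25.1, and MAPK3, which encodes ERK1, 19-fold. These are the largest folds of the list, whose median of the largest folds per gene was 5.0, against 8.50 in the members. Neither RPS6KA1 nor MAPK3 had a summit. Of 13 inhibitors and turnover factors, 9 had a MeTDiff peak (69.2%) and 3 a summit (23.1%). FBXW7, which marks JUN for degradation, had 14.5-fold enrichment, TRIB1 had 8.83-fold, and DUSP6, a phosphatase of ERK, 8.65-fold. FBXW7 and TRIB1 each had 1 summit, and DUSP6 had none.

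Downstream, 11 of 22 target genes had a MeTDiff peak (50.0%) and 9 a summit (40.9%). The autophagy receptor gene SQSTM1, whose transcription NFE2L2 raises together with small MAF proteins, had 8 peaks, the strongest of 30.5-fold, and 6 summits. VEGFA, an angiogenic growth factor gene, had 8 peaks with up to 14.5-fold enrichment. MMP14, a membrane-bound matrix metalloproteinase gene, had 12.3-fold enrichment and a summit of score 47.6. Of 15 other immediate early genes, 6 had a MeTDiff peak (40.0%) and 4 a summit (26.7%). CCN1, a matricellular protein gene, had 15.3-fold enrichment, KLF6 9.25-fold, and MYC 8.82-fold with a summit of score 48.2. CCN1 had 2 summits and KLF6 had none. None of these shares was tested, and each is read only beside the share of all protein-coding genes.

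**Figure D3:**
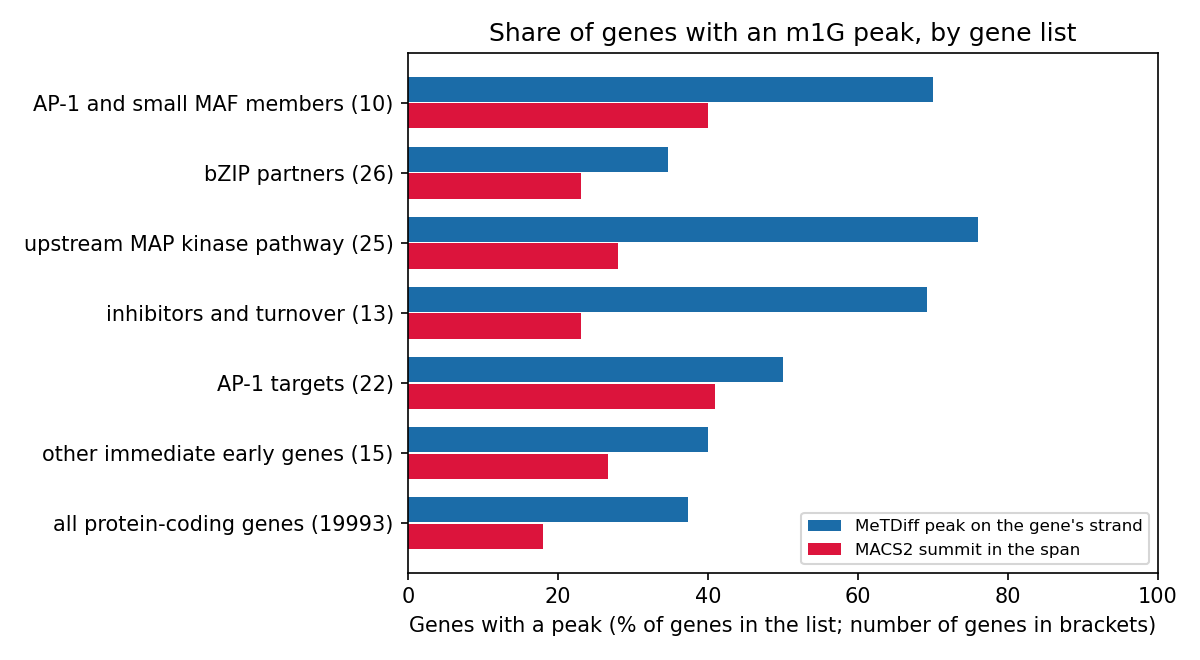
Share of genes with a MeTDiff peak on their strand (blue) and with a MACS2 summit in their span (red), in percent of the genes of each list, with the number of genes in brackets. The members stand at 70.0% and 40.0%, the MAP kinase list at 76.0% and 28.0%, the other bZIP genes at 34.6% and 23.1%, and all protein-coding genes at 37.3% and 18.0%.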

How the data were processed

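The submitters' processing notes name STAR 2.7.1 and MACS2 2.2.5 and the build GRCh38, beside SAMtools, Picard, bedtools, featureCounts, ChIPseeker, edgeR and DESeq2. They give no roles, and which libraries were pooled for peak calling is not stated. In the deposited MACS2 list the score per summit is on the −log10 scale of p-values or q-values, without saying which. In the deposited MeTDiff list each peak has a p-value, an FDR given as log10, and a fold that is taken here as precipitate over input, from the values and the column order.

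A MeTDiff peak was assigned to a gene when at least 1 base of its blocks lay in the RefSeq span (GRCh38.p14) on the strand of the gene, and a summit when it lay in the span. Strand came from the RefSeq promoter table or, for the 4180 of 19993 protein-coding genes outside it (FOSL1 and MAFK among them), from the Ensembl ID with most peaks in the span. For these 4180 genes, any peak in the span therefore led to a peak on the gene's own strand, whichever gene it came from. Genes of chromosome Y were left out of the 19993. A peak in spans of several genes counted for each. A peak counted as lying at an end when its midpoint was within 500 bp of that end of the gene. The assignment was tested on simulated data. All 10 members and up to 3 genes of each further list, those with the largest fold, were named. Members, lists and promoter motifs were chosen with earlier results of these data known. Tests between conditions were not possible without values per library. Alternatives were strand, whole peaks, stricter thresholds and other distances. Python 3.11.15, scipy 1.17.1 and matplotlib 3.10.9 were used.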

Additional observations from a re-analysis of the deposited data

How the results depend on the processing

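The number of members with a MeTDiff peak was 7 under every alternative except a minimum fold of 2, which left 6 (without JUNB). The number of their peaks was between 16, with an FDR of 0.01 or less, and 27, with both strands. With summits scoring at least the list median, 2 members and 2 summits were left in place of 4 and 6. With 250 bp in place of 500 bp, 1 peak lay at a 3′ end in place of 3. Summits inside a peak were 5 of 6 with whole peaks in place of blocks and 6 of 6 within 100 bp. Counting overlapping entries of JUND once, an alternative chosen after seeing the data, left 20 peaks. The median fold was between 5.20 and 8.50 over its alternatives, and the median score of the summits was 16.1 with the highest score of each member. Of all protein-coding genes, 38.1% had a MeTDiff peak with both strands and 34.3% among genes no longer than the longest member. No paired analysis was possible because the peak lists hold no values per library, and for the same reason no library could be left out. Signal over background and depth are unknown.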

Other observations

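Peaks just outside the spans were not counted for the members. Downstream of MAFG on the same strand, 139 bp beyond its span, lay a peak of another ID (ENSG00000187531) with a fold of 10.7 (chromosome 17, 81917683 to 81918131), above every fold of MAFG itself. A summit with a score of 13.9 lay there, 242 bp beyond the MAFG span, and was stronger than both summits in the span. Near the 3′ end of FOSL1, 847 bp beyond its span, a peak of 9.82-fold lay on the opposite strand (ENSG00000175602). No other peak lay within 1000 bp of a member in either list.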
